A study of Mus musculus with 24 samples.

Results

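Genes of the lysosome were followed in cells sorted from mouse fat: 47 listed genes for acid hydrolases and their cofactors (24), lysosomal membrane and sterol transport proteins (8), the transcription factors Tfeb, Tfe3 and Mitf (3), and the proton pump (12). Members were chosen from this list by symbol. A gene was measured where a probe row named it and no other gene, and where several rows did so, the one whose mean across the 24 arrays was largest stood for it. By this rule 46 of the 47 genes were measured, among 22180 genes in all. Glb1 (lysosomal beta-galactosidase) was named only on a row shared with other genes and was not analysed here. All 46 passed the filter on low values, which asked for at least 2 arrays above the array's own median, and 44 of them lay above it on all 24 arrays. The exceptions were Atp6v0d2 (22 arrays) and Tfeb (19).

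The lysosome breaks down lipids, glycans, proteins and glycogen that reach it by endocytosis, phagocytosis or autophagy, and its hydrolases work at acid pH. A vacuolar proton pump acidifies it, with a sector in the membrane that carries protons and a cytosolic sector that splits ATP. Tfeb, Tfe3 and Mitf are related transcription factors that can switch on many lysosomal genes together. In obese fat, macrophages gather around dying adipocytes and take up their lipid, and lysosomal lipid breakdown by these cells is well known.

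All mice were male C57Bl/6, and cells came from collagenase-digested gonadal fat. Lean mice ate a normal diet (ND), obese mice a high-fat diet with 60% fat (HFD), and weight-loss mice (WL) had the HFD for 12 weeks followed by 8 weeks without it; the mice's ages were not given in the sources used here. Adipose tissue macrophages (ATM) were sorted as CD11c- from ND (2 arrays), HFD (3) and WL (2) mice, and as CD11c+ from HFD (3) and WL (3) mice. Dendritic cells (ATDC) came from ND (2) and HFD (3) mice, and preadipocytes (PA) from ND (3) and HFD (3) mice. The design states that CD11c+ macrophages of lean mice were too scarce to purify, so there is no lean group of that kind. ND and HFD samples were pools of several mice, so p-values measure the spread between pools, and 2 or 3 arrays a group limit the precision. All values are the authors' log2 expression values. A difference is given in log2 units with the standard error (SE) of a limma fit over all 24 arrays, and "rose" or "fell" means a Benjamini-Hochberg adjusted p under 0.05 over 15496 genes. Fold changes are powers of 2 of these differences. Signal is relative within an array, so no level is compared between genes.

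The sorted populations carried their markers. The median level of a 14-gene macrophage list lay between 8.68 and 9.74 on every ATM array. A 13-gene dendritic cell list lay between 7.88 and 8.76 on the ATDC arrays and between 3.02 and 4.88 on all others. A 10-gene preadipocyte and fibroblast list lay between 9.77 and 10.23 on the PA arrays. Macrophage genes were also measured in the other sorts, at 7.16 to 9.06 in ATDC and 3.74 to 6.94 in PA. In cell pools a difference in RNA per cell and a difference in the share of a cell type cannot be told apart. In the groups of 3 arrays, 4 arrays stood at least 1 log2 unit from both others of their group on one of these lists. ND PA replicate 1 had a macrophage list level of 5.13 against 3.74 and 3.98, HFD PA replicate 2 had 4.90 against 5.99 and 6.94, and HFD ATDC replicate 1 had 7.16 against 8.62 and 9.06. HFD CD11c- ATM replicate 3 had a preadipocyte list level of 8.54 against 6.79 and 6.92. In groups of 2 no array can be singled out; the WL CD11c- ATM arrays stood at 8.61 and 7.56 on the preadipocyte list, and each was left out in turn only. Results that rest on the 4 arrays are given with and without them.

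The promoters of the listed genes were searched for a sequence feature. Tfeb, Tfe3 and Mitf bind E-boxes with the core CACGTG, and the longer TCACGTGA, which contains that core, is a strong form of it; both read the same on either strand. RefSeq promoter sequences (build GRCm38.p6, 250 bases before to 50 after the start) were at hand for 40 of the 47 listed genes. CACGTG occurred in 12 of the 40 (30%) and in 8.09% of 27025 genes with a promoter. TCACGTGA occurred in 5 of the 40 (12.5%: Gla, Cln3, Mcoln1, Atp6v0d1 and Atp6v1a) and in 1.12% of the same 27025 genes. These are all genes with a promoter sequence, not the genes tested on the arrays. The core was found in 6 of 22 hydrolase and cofactor genes, 3 of 7 membrane protein genes, 3 of 8 pump genes and 0 of 3 transcription factor genes. A match is a stretch of letters, not a measured binding site. The 5 promoters with 2 or more copies of the core, and that of the pump subunit gene Atp6v1a with TCACGTGA, are shown because they carry this feature most plainly; they are written 5′ to 3′ on the gene's strand, with the core in capitals.
Gla (chrX:134601179-134601247, minus strand): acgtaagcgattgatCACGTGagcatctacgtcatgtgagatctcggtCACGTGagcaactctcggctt
Lamp1 (chr8:13159085-13159160, plus strand): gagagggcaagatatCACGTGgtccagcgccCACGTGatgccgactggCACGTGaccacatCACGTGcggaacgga
Cln3 (chr7:126583337-126583400, minus strand): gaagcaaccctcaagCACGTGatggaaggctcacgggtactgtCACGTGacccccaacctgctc
Mcoln1 (chr8:3500433-3500494, plus strand): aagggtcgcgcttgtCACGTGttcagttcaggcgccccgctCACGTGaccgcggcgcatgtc
Atp6v0b (chr4:117887330-117887380, minus strand): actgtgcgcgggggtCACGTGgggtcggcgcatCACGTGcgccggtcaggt
Atp6v1a (chr16:44139370-44139405, minus strand): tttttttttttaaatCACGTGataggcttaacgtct
The Lamp1 stretch ends at the base before the start and holds 4 copies of the core within 76 bases. In Gla both copies are the longer TCACGTGA, while Cln3 and Mcoln1 have 1 longer and 1 core copy each. The table held no promoter for Asah1, Galns, Npc1, Atp6v0d2, Atp6v1b2, Atp6v1c1 or Atp6v1h.

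Across the 9 groups, most members had their highest mean in CD11c+ macrophages and their lowest in lean preadipocytes or lean dendritic cells. The highest group mean was in HFD CD11c+ ATM for 20 of 46 members and in WL CD11c+ ATM for 14. The lowest was in ND PA for 22 and in ND ATDC for 14. Such shares were not counted for all genes. By the test, CD11c+ differed from CD11c- ATM in 0 of 46 members in HFD and in 1 in WL. The range of group means had a median of 1.54 log2 units. Atp6v0d2, an inducible subunit of the pump's membrane sector known from osteoclasts and macrophages, had the widest range, 7.75, from 2.34 in ND PA to 10.08 in WL CD11c+ ATM. Its ND PA mean includes values below the array median, and with these set to the median the range was 6.85. Next came Cd68, a heavily glycosylated lysosomal membrane protein used as a macrophage marker (5.27), Acp5, tartrate-resistant acid phosphatase (3.90), Gaa, the acid alpha-glucosidase that degrades glycogen (3.37), and Lipa, the acid lipase that frees fatty acids and cholesterol (2.75). The most even genes were Tfeb (0.55), Lamp1 (0.74) and Npc2 (0.75). Lamp1 is an abundant glycoprotein of the lysosomal membrane and Npc2 a soluble cholesterol carrier.

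**Figure D1:**
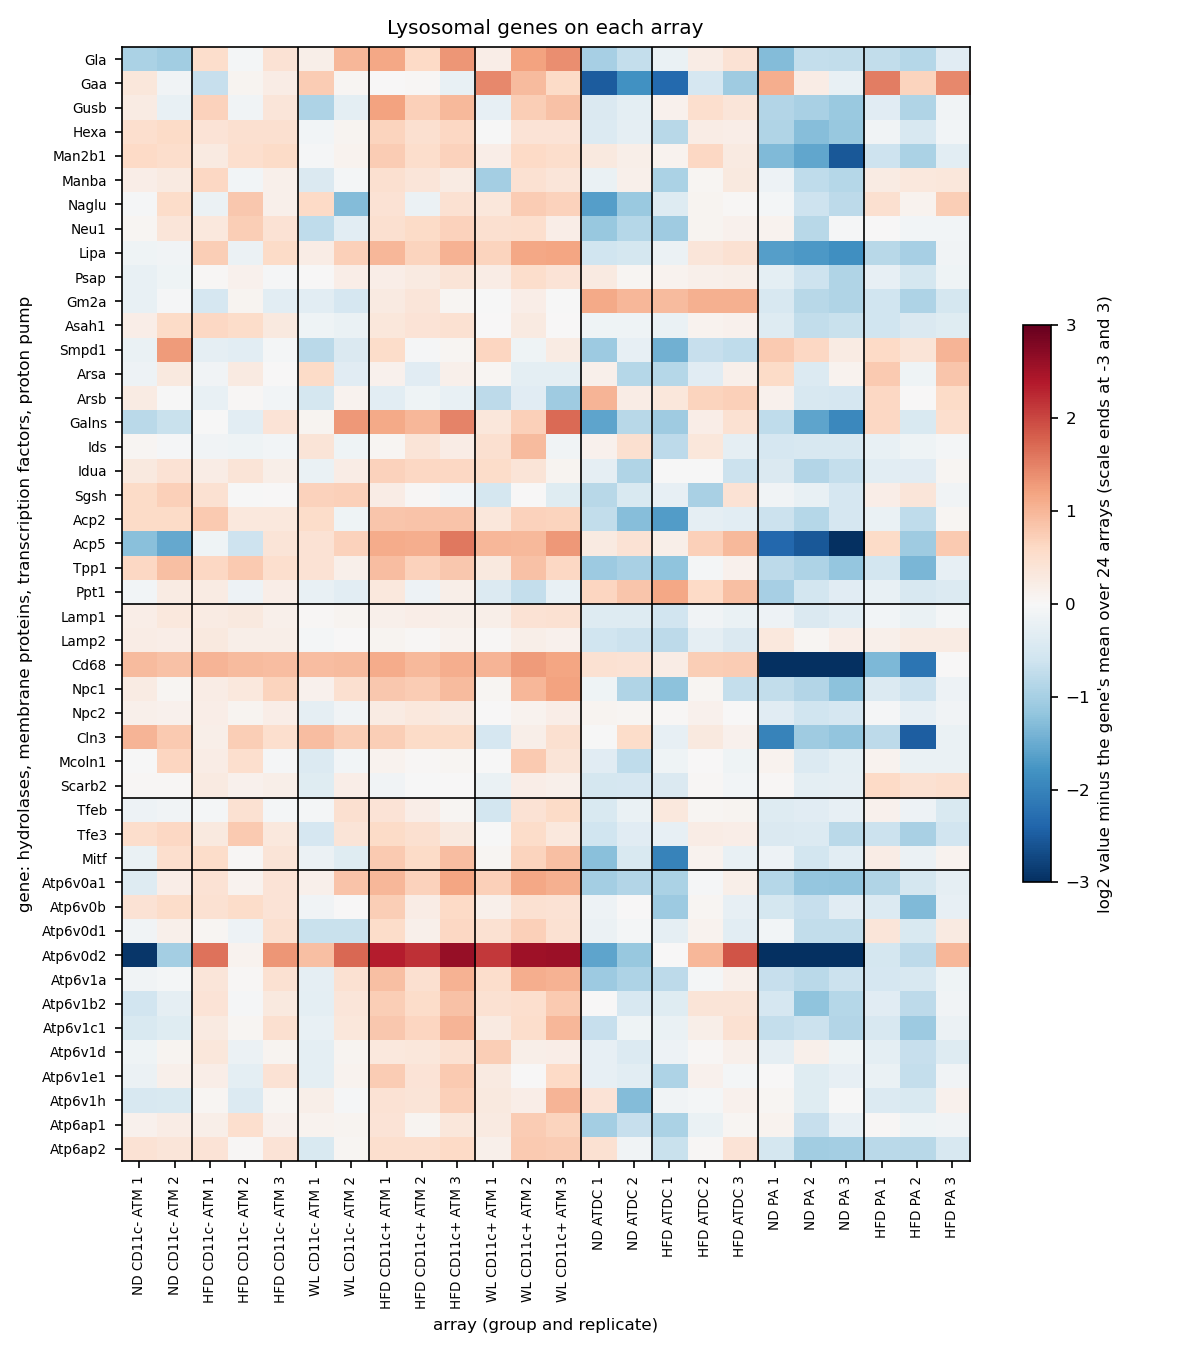
Each row is a lysosomal gene, in the order hydrolases and cofactors, membrane proteins, transcription factors and proton pump, and each column an array; colour gives the log2 value minus the gene's mean over 24 arrays. Atp6v0d2, Cd68 and Acp5 show the widest contrasts, most members are above their mean in CD11c+ ATM, and HFD ATDC replicate 1 is below the other HFD ATDC arrays in 40 of 46 rows.

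Whether diet changed lysosomal genes in CD11c- macrophages was asked by setting HFD against ND CD11c- ATM. Only Atp6v0d2 passed the test (1 of 46 members, 2.17%, against 0.613% of all genes), and the medians were 0.03 for the members and 0.01 for all genes. Atp6v0d2 had values of 4.75 and 6.66 in ND and of 9.31, 7.79 and 9.01 in HFD. The ND arrays lay further apart than the HFD arrays. The difference was 3.00 ± 0.67 (SE; adjusted p = 0.0461), or 8.01-fold. It was lost when ND replicate 1, HFD replicate 1 or HFD replicate 3 was left out, with an adjusted p of up to 0.571, and it was lost without the arrays that stood apart.

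Among the 23 hydrolases and cofactors in this comparison none passed, and 10 had a difference above 0. Gla, the alpha-galactosidase that trims glycolipids, had 5.92 and 5.81 in ND and 7.39, 6.80 and 7.29 in HFD CD11c- ATM (difference 1.29 ± 0.35, adjusted p = 0.122). Acp5 had 5.33 and 5.04 in ND and 6.46, 5.96 and 6.98 in HFD (1.28 ± 0.42, adjusted p = 0.242). Neither gene passed the test over all genes. The preadipocyte list was higher in HFD than in ND CD11c- ATM, at 6.79 to 8.54 against 4.67 to 5.22, and 2 of its 10 genes rose; its part in these values was not tested.

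Within obese fat, CD11c+ and CD11c- macrophages did not differ in any member by the test (0 of 46; 0.00645% of all genes passed, which is 1 gene). Unadjusted p was under 0.05 for 8 members, all higher in CD11c+ cells, or 17.4% of members and 6.43% of all genes. The largest of these differences were 1.37 ± 0.37 for Acp5 (adjusted p = 0.396), 1.36 ± 0.60 for Atp6v0d2 (0.732) and 1.18 ± 0.44 for Galns, a sulfatase of keratan and chondroitin sulfate (0.619). All 12 listed pump genes had a difference above 0, with a median of 0.51, where the median of all genes was 0.04. The differences of these pump genes ran from 0.0033 (Atp6ap1, an accessory subunit) to 1.36. Of 8 tested pump genes outside the list, 4 had a difference above 0 (median 0.04). Markers of some other cells were lower in the CD11c+ sort, though 0 of them passed. The difference was below 0 for 10 of 10 preadipocyte genes (median -1.54), 7 of 7 monocyte genes (-1.14) and 7 of 7 mast cell genes (-1.23). It was above 0 for 9 of 13 dendritic cell genes (median 0.18) and 5 of 8 endothelial genes (0.14). For T and NK cell genes it was above 0 for 3 of 9 (-0.31), and for B cell genes for 2 of 6 (-0.05). The part of these markers in the pump values was not tested.

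The comparison that joins both steps, HFD CD11c+ against ND CD11c- ATM, was added after the values were seen, and in it diet and CD11c class cannot be told apart. It shares its groups with the comparisons above. Here 6 of 46 members rose and 0 fell (13% against 3.75% of all genes; 2.48% of all genes rose). The members that rose were 3 hydrolases (Acp5, Gla, Galns) and 3 pump subunits (Atp6v0d2, Atp6v1c1, Atp6v1b2). Atp6v0d2 reached 10.04, 9.87 and 10.28 in HFD CD11c+ ATM, a difference of 4.36 ± 0.67 (adjusted p = 0.00118), or 20.5-fold. Acp5 reached 7.69, 7.67 and 8.15, a difference of 2.65 ± 0.42 (adjusted p = 0.00131). Gla reached 8.02, 7.46 and 8.18, a difference of 2.02 ± 0.35 (adjusted p = 0.00288). These 3 genes passed in each of the 5 fits that left out 1 array.

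Galns stood at 4.86 and 5.00 in ND CD11c- ATM and at 6.80, 6.66 and 7.16 in HFD CD11c+ ATM (1.94 ± 0.50, adjusted p = 0.0324). Atp6v1c1, a subunit of the stalk of the cytosolic sector, stood at 8.00 and 8.09 against 9.28, 9.12 and 9.48 (1.25 ± 0.30, adjusted p = 0.0215). Atp6v1b2, a subunit of its catalytic head, stood at 9.67 and 9.99 against 10.99, 10.81 and 11.14 (1.15 ± 0.29, adjusted p = 0.0328). Galns passed in 0 of the 5 fits that left out 1 array (adjusted p up to 0.223). Atp6v1c1 and Atp6v1b2 each passed in 1 of 5 (up to 0.174 for Atp6v1c1 and 0.299 for Atp6v1b2). All 12 listed pump genes had a difference above 0 (median 0.78), against 52.7% of all genes. Of 8 tested pump genes outside the list, 4 had a difference above 0 (median -0.04). When arrays were centred on their medians, the median of all genes in this comparison moved from 0.03 to 0.15, less than the difference of any gene that rose. The macrophage list had a median difference of -0.20, with 1 of 14 genes falling. The preadipocyte list stood at 5.59 to 6.67 against 4.67 to 5.22, with 1 of 10 genes rising, and the dissociation stress list had a median difference of -0.94, with 1 of 14 genes falling. Their part was not tested.

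**Figure D2:**
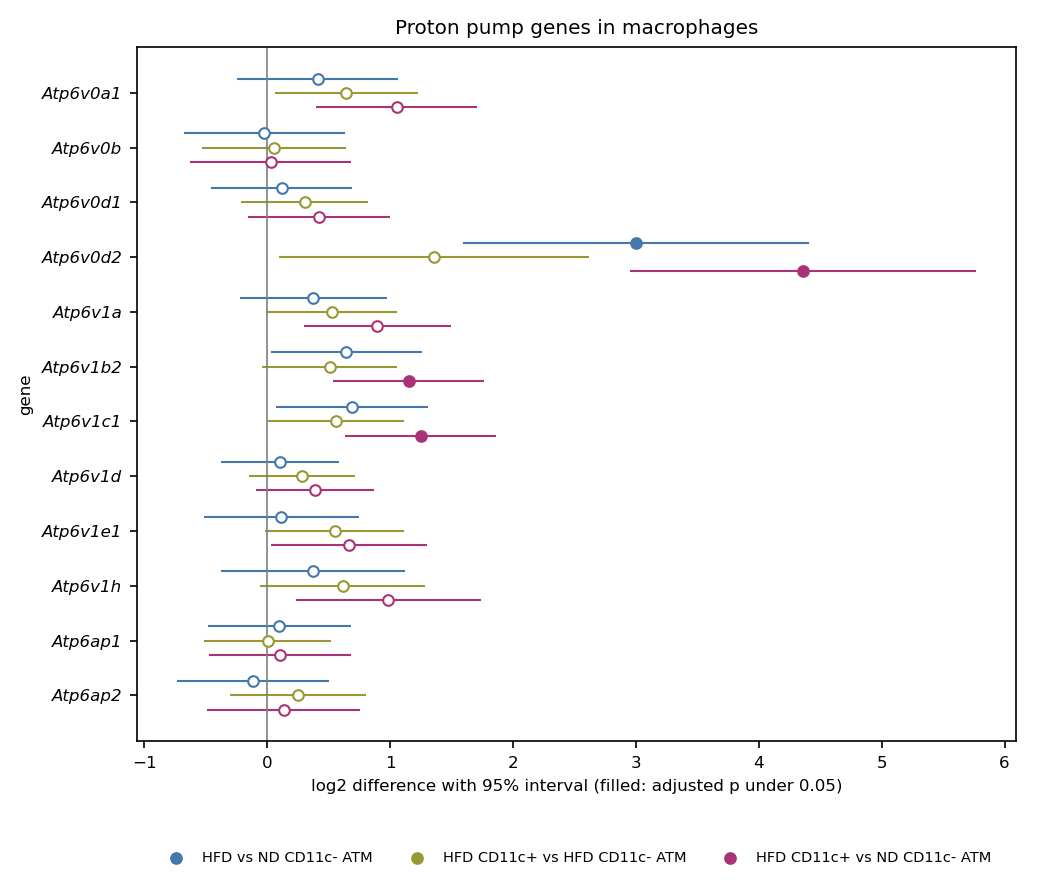
The log2 difference of each of the 12 proton pump genes is plotted with its own 95% interval (not adjusted for the number of genes) in 3 macrophage comparisons that share groups; filled points passed the adjusted test. Atp6v0d2 lies furthest to the right, at 3.00, 1.36 and 4.36, and the filled points are Atp6v0d2, Atp6v1b2 and Atp6v1c1.

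Whether these levels fell again after weight loss was asked in both macrophage classes. In CD11c- ATM, 0 of 46 members passed between WL and HFD (2.96% of all genes passed). Unadjusted p was under 0.05 for 4 members (8.7%, against 17.7% of all genes), all lower in WL. These were Neu1, a sialidase (-1.04 ± 0.32, adjusted p = 0.0883), Gusb, beta-glucuronidase (-0.94 ± 0.33, 0.129), Atp6v0d1 (-0.80 ± 0.28, 0.123) and Asah1, acid ceramidase (-0.66 ± 0.20, 0.0761). In CD11c+ ATM, 0 of 46 passed (1.33% of all genes passed), with unadjusted p under 0.05 for Gaa (higher, 1.04 ± 0.42, adjusted p = 0.183) and Ppt1 (lower, -0.56 ± 0.22, 0.169). That was 4.35% of members, against 20.1% of all genes. Atp6v0d2 stood at 8.58 and 9.39 in WL CD11c- ATM and at 9.79, 10.22 and 10.25 in WL CD11c+ ATM. These values overlapped those of the same class in HFD. In the CD11c- comparison 5 of 7 mast cell genes rose as well (list level 9.23 and 9.32 in WL, 2.29 to 7.23 in HFD); their part was not tested. The WL minus HFD difference of Atp6v0d2 had a 95% interval from -1.13 to 1.69 in CD11c- and from -1.24 to 1.28 in CD11c+ cells. The members' median difference was -0.20 in CD11c- and -0.15 in CD11c+ cells, and the latter turned to 0.02 when arrays were quantile-normalised. The WL effect did not differ between the classes for any member (0 of 46, against 0.161% of all genes). Unadjusted p was under 0.05 for 3 members (6.52%, against 6.74% of all genes).

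Set against lean cells, WL CD11c- ATM had 3 members that rose and 0 that fell (6.52% against 6.18% of all genes; 3.23% of all genes rose), a share close to the background. Atp6v0d2 was 3.28 ± 0.74 higher (adjusted p = 0.0108). Acp5, at 7.02 and 7.28 against 5.33 and 5.04, was 1.97 ± 0.46 higher (adjusted p = 0.0133). Gla, at 7.05 and 7.87 against 5.92 and 5.81, was 1.59 ± 0.38 higher (adjusted p = 0.0163). The same 3 genes rose in HFD CD11c+ against ND CD11c- ATM, a comparison that uses the same lean arrays. With 2 arrays a side none of the calls was stable: without ND replicate 1 or WL replicate 2 all 3 missed the threshold, as did Acp5 and Gla without ND replicate 2 (adjusted p up to 0.163, 0.109 and 0.144 for Atp6v0d2, Acp5 and Gla). The sorted WL cells also carried other markers. In WL against ND CD11c- ATM 7 of 7 mast cell genes rose (list level 9.23 and 9.32, against 2.28 and 2.72) and 8 of 10 preadipocyte genes rose; their part in the lysosomal values was not tested.

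After weight loss, Atp6v0d1, the widely expressed form of the d subunit, was higher in CD11c+ than in CD11c- ATM (1 of 46 members, 2.17%, against 1.34% of all genes). It stood at 8.74, 9.02 and 8.75 in CD11c+ cells and at 7.63 and 7.62 in CD11c- cells, a difference of 1.21 ± 0.28 (adjusted p = 0.034). The call held in 1 of the 5 fits that left out 1 array (adjusted p up to 0.102). All 12 listed pump genes again had a difference above 0, with a median of 0.51 against 0.03 for all genes. Of 8 tested pump genes outside the list, 6 had a difference above 0 (median 0.35). Of all members, 40 of 46 lay above 0 (87%, against 52.8% of all genes). The mast cell list was lower in the CD11c+ cells, with 3 of 7 genes falling and levels of 5.82 to 7.06 against 9.23 and 9.32; whether it bears on these differences was not tested.

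**Figure D3:**
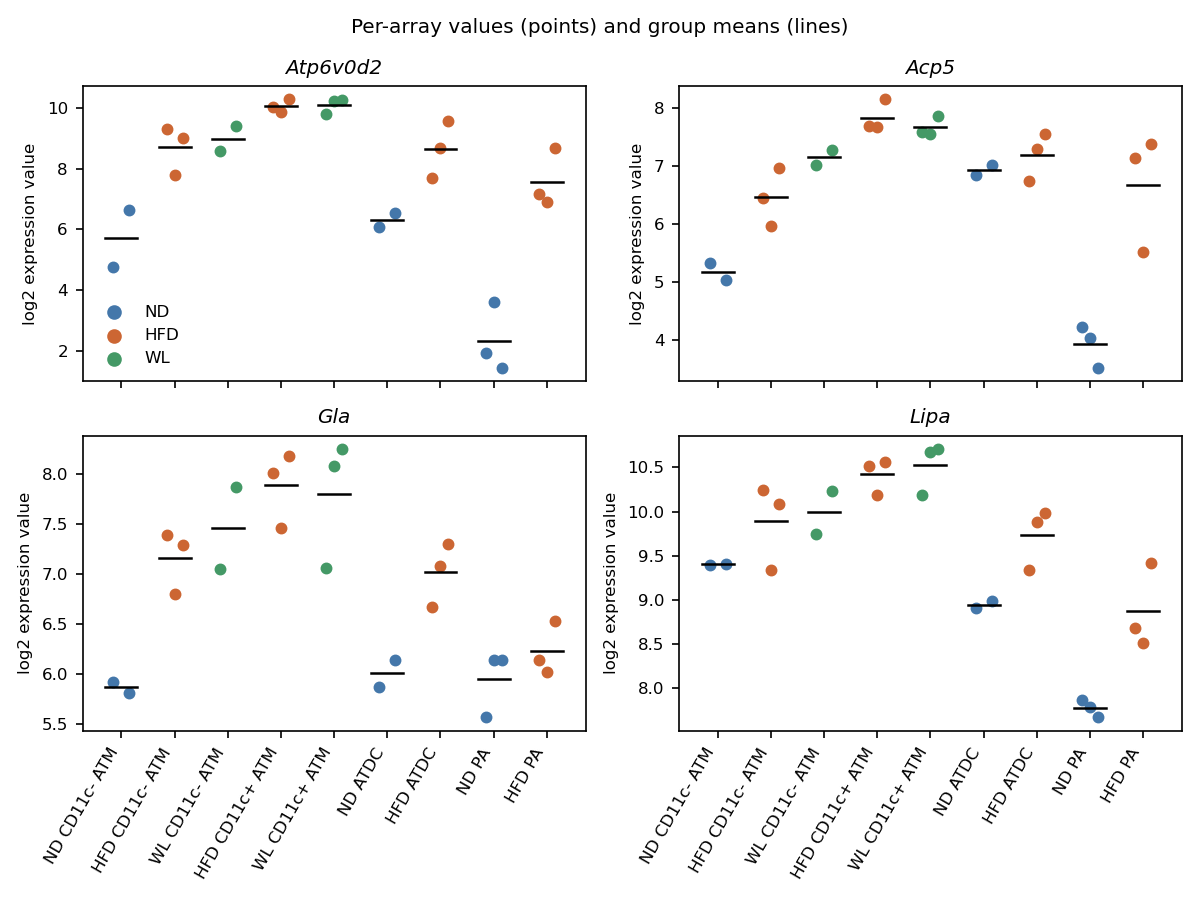
Points are the log2 values of single arrays and lines are group means for Atp6v0d2, Acp5, Gla and Lipa in all 9 groups, with diet by colour. The 3 lean groups hold the lowest mean of each sort for all 4 genes, and Atp6v0d2 stays between 8.58 and 10.25 on the WL arrays.

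In dendritic cells diet gave no call. Between HFD and ND ATDC 0 of 46 members passed (0.258% of all genes did), while unadjusted p was under 0.05 for 9 members, all higher in HFD (19.6% of members, 8.62% of all genes). The largest was Atp6v0d2, at 6.10 and 6.55 in ND and 7.70, 8.67 and 9.57 in HFD (2.32 ± 0.67, adjusted p = 0.197). Next came Naglu, a heparan sulfate hydrolase (1.30 ± 0.42, 0.28), Galns (1.06 ± 0.50, 0.559) and Gla (1.01 ± 0.35, 0.331). The HFD values of Atp6v0d2 were spread more widely than its ND values. The diet effect in ATDC did not differ from that in CD11c- ATM for any member (0 of 46, against 0.0581% of all genes). Unadjusted p was under 0.05 for 1 member (2.17%, against 7.25% of all genes).

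Dendritic cells differed from macrophages of the same diet by mostly lower lysosomal expression. In lean mice, 10 members fell and 2 rose in ATDC against CD11c- ATM (26.1% of members against 8.27% of all genes; 4.6% of all genes fell), and the medians were -0.47 for the members and -0.01 for all genes. Gaa had 4.61 and 5.27 in ATDC and 7.44 and 6.98 in macrophages (-2.27 ± 0.52, adjusted p = 0.00737). Tpp1, a peptidase, had 7.96 and 8.08 against 9.67 and 9.94 (-1.79 ± 0.37, adjusted p = 0.00369). Both differences were wider than the spread of either group. The other genes that fell were the hydrolases Naglu (-1.64), Acp2, the lysosomal acid phosphatase (-1.58), Sgsh (-1.29), Neu1 (-1.21) and Idua (-0.96), the membrane protein Lamp2 (-0.83), the transcription factor Tfe3 (-1.05) and the pump accessory subunit Atp6ap1 (-1.02). In the other direction, Gm2a, a cofactor that lifts gangliosides out of membranes for Hexa to cut, had 11.27 and 11.13 in ATDC and 9.92 and 10.10 in macrophages (1.19 ± 0.23, adjusted p = 0.00234). Acp5 had 6.86 and 7.02 against 5.33 and 5.04 (1.75 ± 0.46, adjusted p = 0.0192). Tpp1 and Gm2a passed in all 4 fits that left out 1 array. Gaa did not pass without CD11c- ATM replicate 1 or ATDC replicate 1 (up to 0.0905). Naglu, Neu1, Tfe3, Atp6ap1, Lamp2 and Acp5 passed in 0 of the 4 (highest adjusted p from 0.0736 for Lamp2 to 0.243 for Atp6ap1), and Acp2, Sgsh and Idua in 1.

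In obese mice ATDC were set against CD11c+ ATM, a different macrophage class from the lean comparison. Here 7 members fell and 2 rose (19.6% against 4.16% of all genes; 2.44% of all genes fell), and 3 of the 46 differences lay above 0. Acp2 had 6.24, 7.64 and 7.60 in ATDC and 8.74, 8.76 and 8.77 in CD11c+ ATM (-1.60 ± 0.31, adjusted p = 0.00452). Mitf had 5.24, 7.35 and 7.02 against 8.03, 7.82 and 8.17 (-1.47 ± 0.39, adjusted p = 0.0382). Npc1, the membrane protein that exports cholesterol from the lysosome, had 6.04, 7.33 and 6.55 against 8.07, 8.02 and 8.20 (-1.46 ± 0.31, adjusted p = 0.00949). In all 3 genes ATDC replicate 1 was the lowest array. Also lower were the pump subunits Atp6v0a1 (-1.23) and Atp6v1a (-1.04), Tpp1 (-1.20) and Idua (-0.88), and higher were Gm2a (0.80 ± 0.19, adjusted p = 0.0188) and Ppt1, a thioesterase that removes palmitate from proteins (0.77 ± 0.22, 0.0497).

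ATDC replicate 1, the array with the low macrophage list, was the lowest of its group for 40 of 46 members. Without it 2 members passed, Acp2 (-1.14 ± 0.26, adjusted p = 0.0303) and Idua (-0.98 ± 0.25, 0.0472). Without all 4 arrays that stood apart only Acp2 passed (adjusted p = 0.0285). Other single arrays mattered too: Gm2a passed in 2 of 6 such fits and Ppt1 in 1, while Acp2 passed in all 6. The macrophage list had 8 of 14 genes lower in ATDC in lean and 4 of 14 in obese mice, the dendritic cell list had 9 and 10 of 13 genes higher, and the T and NK cell list had 5 and 3 of 9 genes higher. How far other cells in the sorts shift the lysosomal values was not tested.

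**Figure D4:**
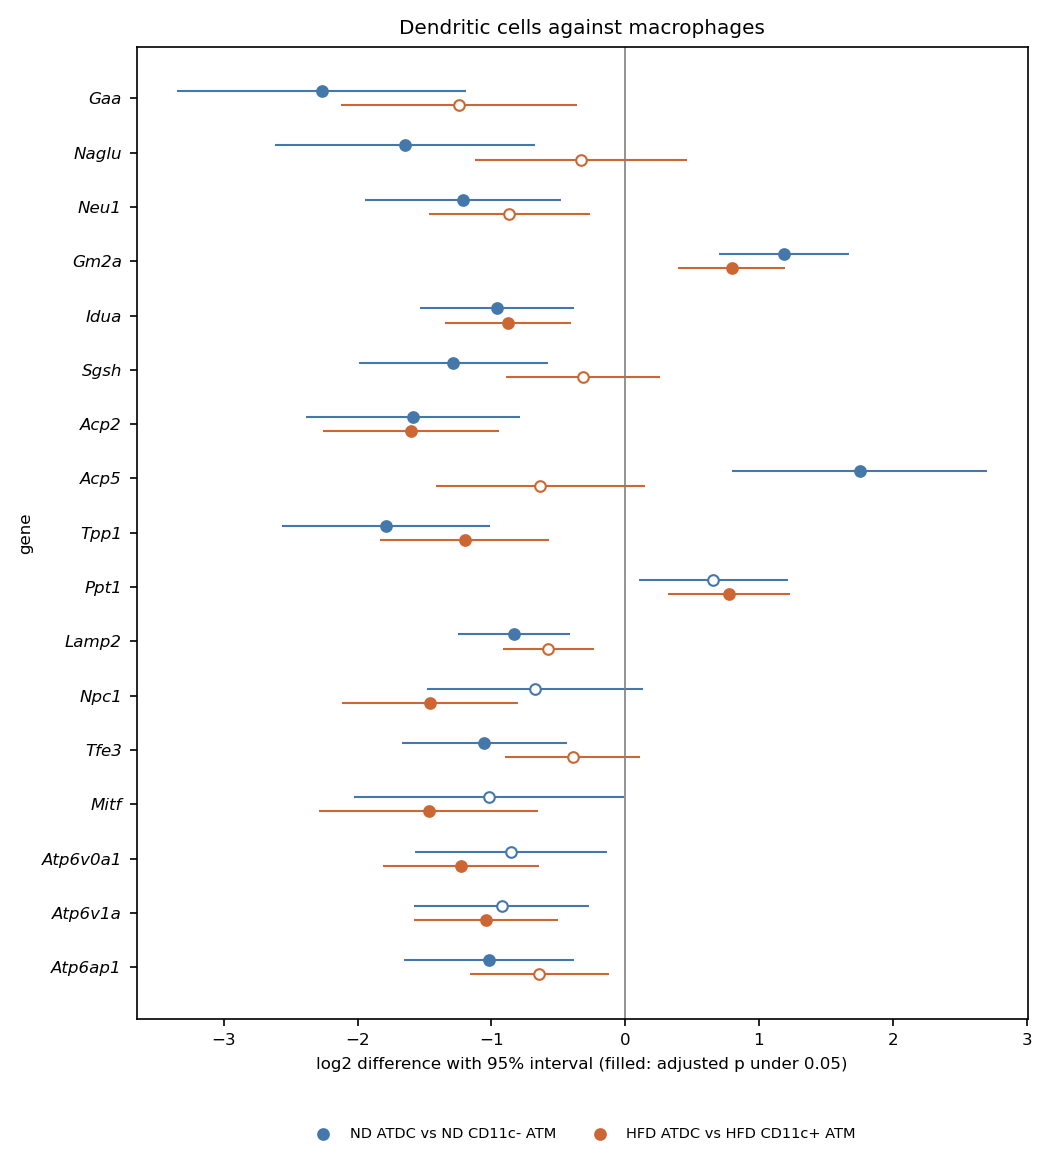
The log2 difference between ATDC and macrophages of the same diet is plotted with its own 95% interval (not adjusted for the number of genes) for the 17 members that passed in either comparison; filled points passed. Most points lie left of 0, Gm2a and Ppt1 lie to the right in both, and Acp5 is at 1.75 against lean CD11c- ATM and at -0.63 against obese CD11c+ ATM.

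In preadipocytes 5 members rose with the high-fat diet and 0 fell (10.9%, against 2.59% of all genes; 1.69% of all genes rose). The genes were Atp6v0d2, Cd68, Acp5, Man2b1, a mannosidase, and Lipa. Atp6v0d2 had 1.95, 3.62 and 1.45 in ND and 7.15, 6.90 and 8.67 in HFD (5.23 ± 0.60, adjusted p = 6.08e-05), or 37.6-fold. In ND only 1 of the 3 arrays lay above its own median; with the others set to the array median the difference was 4.34. Cd68 had 7.12, 6.55 and 4.53 in ND and 8.83, 7.98 and 10.20 in HFD (2.94 ± 0.49, adjusted p = 0.00173). Acp5 had 4.23, 4.04 and 3.53 in ND and 7.14, 5.52 and 7.38 in HFD (2.75 ± 0.37, adjusted p = 0.000283). Atp6v0d2, Cd68 and Acp5 each passed in all 6 fits that left out 1 array.

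Man2b1 had 8.28, 8.04 and 7.05 in ND and 8.99, 8.67 and 9.29 in HFD (1.19 ± 0.26, adjusted p = 0.0145). Lipa had 7.87, 7.79 and 7.67 in ND and 8.69, 8.51 and 9.42 in HFD (1.10 ± 0.27, adjusted p = 0.0337). The Man2b1 call was lost when replicate 3 of either diet was left out (adjusted p up to 0.106), and Lipa passed only without HFD replicate 2 (up to 0.23). Of all members 41 of 46 had a difference above 0 (89.1%, against 48.4% of all genes), among them all 23 hydrolases and cofactors and all 8 membrane proteins; the medians were 0.35 for the members and -0.02 for all genes. Just past the threshold lay Galns (1.65 ± 0.44), Scarb2, the receptor that carries glucocerebrosidase to lysosomes (0.70 ± 0.19, both adjusted p = 0.0531), and Hexa (0.88 ± 0.24, 0.0542). Among the pump genes other than Atp6v0d2 the largest difference was 0.58 ± 0.25 for Atp6v0d1 (adjusted p = 0.329).

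Macrophage genes moved with these values. In HFD against ND PA 8 of 14 macrophage genes rose (median difference 1.81); the list level was 5.99, 4.90 and 6.94 in HFD and 5.13, 3.98 and 3.74 in ND, while HFD CD11c+ ATM stood at 9.29 or more. Of the 14 macrophage genes, 12 lay above the array median on every HFD PA array and 8 on every ND PA array; Marco lay below it on all PA arrays, as it did on the ATDC arrays. Within HFD PA the 5 members kept the order of the macrophage list on all 3 arrays, with replicate 2 lowest and replicate 3 highest. HFD PA replicate 2 was the lowest of its group for 37 of 46 members and replicate 3 the highest for 31. On the arrays with the closest list levels, ND replicate 1 (5.13) and HFD replicate 2 (4.90), Atp6v0d2 was 1.95 and 6.90 and Acp5 was 4.23 and 5.52. On the same arrays Cd68 was 7.12 and 7.98, Man2b1 8.28 and 8.67, and Lipa 7.87 and 8.51. These values set 1 array against 1. Without the arrays that stood apart 9 members rose: the same 5, with Cd68 at 3.97 ± 0.48 and Acp5 at 3.47 ± 0.27, and also Galns, Gaa, Hexa and Atp6v0d1. That fit leaves out the ND PA array highest and the HFD PA array lowest on the macrophage list. It thus widens the gap in the list, which stood at 3.98 and 3.74 in ND and 5.99 and 6.94 in HFD on the arrays kept. The part of macrophage RNA in these differences was not tested.

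**Figure D5:**
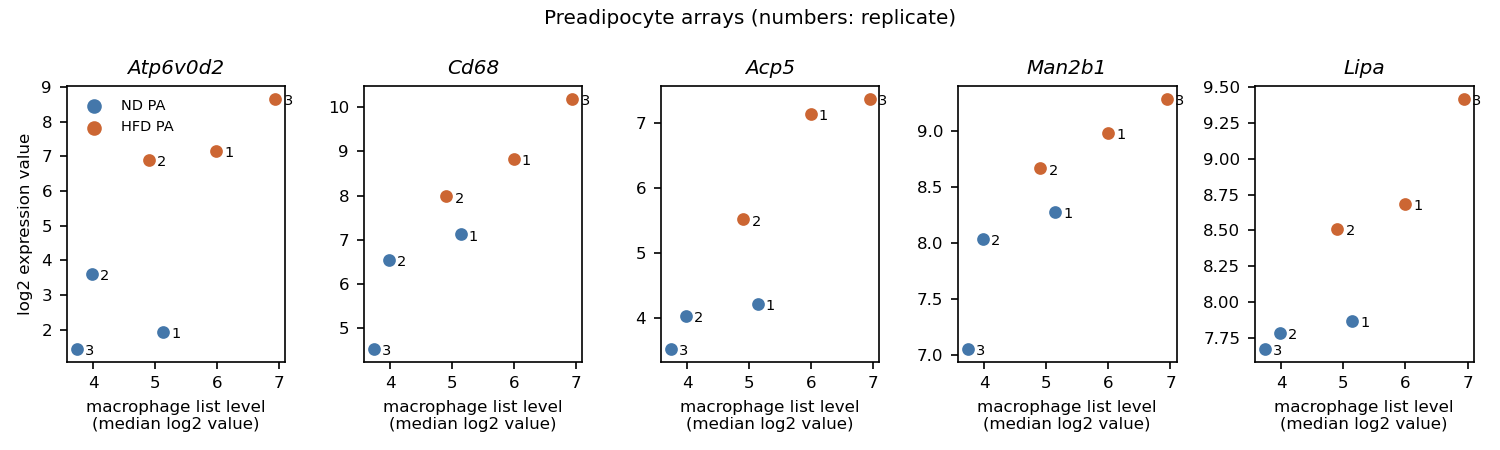
Log2 values of the 5 members that rose in HFD preadipocytes are plotted against the median log2 level of the macrophage list on the same array, with ND and HFD by colour and the replicate beside each point. On the HFD arrays all 5 genes keep the order of the macrophage list.

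The diet effect in PA was set against that in CD11c- ATM directly. For the members 0 of 46 differed by the test (0.277% of all genes passed). Unadjusted p was under 0.05 for 8 members (17.4%, against 9.04% of all genes), 7 of them with the larger rise in PA. The largest fitted differences among these were Cd68 (2.90 ± 0.74, adjusted p = 0.12), Atp6v0d2 (2.23 ± 0.90, 0.406) and Acp5 (1.47 ± 0.56, 0.372). With Atp6v0d2 values under the array median set to it, its difference was 1.34, below that of Acp5. Without the arrays that stood apart Cd68 (3.92 ± 0.68, adjusted p = 0.00843) and Acp5 (2.45 ± 0.38, 0.00399) passed. In PA that fit leaves out the ND array highest and the HFD array lowest on the macrophage list. It thus widens the gap in that list between the diets. The rise of Atp6v0d2 with diet was thus called in PA and in CD11c- ATM, and its size was not shown to differ between them. The call in CD11c- ATM was lost when some single arrays were left out, while that in PA was not. In PA its values moved with the macrophage list, whose part was not tested.

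Lean preadipocytes had lower lysosomal expression than lean macrophages. Against ND CD11c- ATM 22 of 46 members fell and 0 rose (47.8% against 23.4% of all genes; 10.8% of all genes fell), and the medians were -0.62 and -0.01. In the same comparison 13 of 14 macrophage genes fell and 9 of 10 preadipocyte genes rose. The members that fell were 12 hydrolases and cofactors, 5 membrane proteins, Tfe3 and 4 pump genes. Cd68 fell by 5.03 ± 0.55 (adjusted p = 8.67e-07) and Man2b1 by 2.37 ± 0.29 (2.96e-06). Cln3, a membrane protein lost in a childhood storage disease, had 4.79, 5.75 and 5.63 in PA and 7.84 and 7.59 in ATM (-2.32 ± 0.46, adjusted p = 0.000704). Atp6v0d2 was also lower (fitted difference -3.37 ± 0.67, adjusted p = 0.000748). Most of its PA values lay below the array median, and with these set to the median it was lower by 2.47. Tpp1 (-1.72), Hexa (-1.65), Lipa (-1.63), Atp6ap2 (-1.26), Acp5 (-1.25) and Acp2 (-1.23) followed. Of the 22 genes 11 passed in each of the 5 fits that left out 1 array, among them Cd68, Man2b1, Cln3, Atp6v0d2, Tpp1, Hexa, Lipa and Atp6ap2; Acp5 passed in 1 (adjusted p up to 0.202) and Acp2 in 3 (missed without either ATM array, up to 0.077). Lamp2, Scarb2 and Gaa did not pass, with differences of -0.01, -0.21 and 0.25.

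The same contrast in obese mice, HFD PA against HFD CD11c+ ATM, was also added after the values were seen. It had 25 members that fell and 2 that rose (58.7% against 25.2% of all genes; 13.5% of all genes fell), with medians of -0.84 and -0.07. Pump genes fell most evenly, 9 of 12, led by Atp6v0d2 (-2.49 ± 0.60, adjusted p = 0.00366), Atp6v0a1 (-1.52) and Atp6v1c1 (-1.40). Of the others, Cd68 fell by 2.23 ± 0.49 (adjusted p = 0.00171), Cln3 by 1.79, Gla by 1.66, Lipa by 1.55, Tpp1 by 1.53, Gusb by 1.42 and Man2b1 by 1.28. These 10 genes passed in all 6 fits that left out 1 array, as did 20 of the 27 called members. The 2 that rose were Gaa, at 8.63, 7.76 and 8.54 in PA and 7.10, 7.14 and 6.88 in CD11c+ ATM (1.27 ± 0.42, adjusted p = 0.031), and Scarb2 (0.56 ± 0.19, 0.0339). Neither was stable: Gaa passed in 1 of the 6 fits (up to 0.116) and Scarb2 in 0 (up to 0.105).

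The transcription factors themselves gave no call with diet. In 0 of the 3 diet comparisons, HFD against ND in CD11c- ATM, ATDC and PA, did Tfeb, Tfe3 or Mitf pass the test. A difference above 0 was seen for 2 of 3 in CD11c- ATM, 3 of 3 in ATDC and 2 of 3 in PA. Their median differences were 0.16, 0.49 and 0.175. Tfeb lay near the array median, between 2.81 and 3.94 on all arrays, so that a change in it would be hard to see. Mitf ranged from 5.24 on HFD ATDC replicate 1 to 8.17 on HFD CD11c+ ATM replicate 3. Tfe3 fell in both PA comparisons with macrophages, by 1.14 ± 0.27 in ND (adjusted p = 0.00346) and by 1.18 ± 0.24 in HFD (0.000865).

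Other lysosomal genes, from lists that were not part of the 47, were counted in the same fit. Of 21 further hydrolases, 1 rose with HFD in CD11c- ATM (0.613% of all genes passed), 2 in ATDC (0.258%) and 4 in PA (2.59%), and 0 fell. Ctsk, a collagen-degrading cathepsin prominent in osteoclasts, rose by 4.53 ± 0.58 in CD11c- ATM (adjusted p = 0.00054) and by 4.75 ± 0.58 in ATDC (0.000771). Of the ND ATDC arrays 1 lay below its median for Ctsk, and with that value set to the median the ATDC difference was 4.38. Ctsk was also high in lean PA (9.21, 8.69 and 9.08), and the preadipocyte list was higher in HFD than in ND CD11c- ATM, with 2 of 10 genes rising; its part was not tested. Ctsl rose by 1.82 ± 0.35 in ATDC (0.028), a call lost without ND ATDC replicate 1 or HFD ATDC replicate 2 or 3 (adjusted p up to 0.318, difference 1.19 to 2.44). In PA the 4 were the proteases Lgmn (3.29 ± 0.32, adjusted p = 1.16e-05), Ctss (3.05 ± 0.46, 0.000645), Ctsb (1.08 ± 0.21, 0.00675) and Scpep1 (0.75 ± 0.17, 0.024), in the same comparison in which 8 of 14 macrophage genes rose. Ctss and Lgmn passed in all 6 fits that left out 1 array. Ctsb was lost when HFD replicate 3 or ND replicate 2 was left out (adjusted p up to 0.0544), and Scpep1 passed in 2 of the 6 (up to 0.141). Of 17 other membrane proteins, 8 tested pump genes (of 12 measured) and 14 nutrient-signalling genes, 0 passed with diet in any of the 3 sorts.

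Of 10 genes that sort enzymes to lysosomes, Igf2r, the large mannose-6-phosphate receptor, rose in HFD CD11c- ATM (3.09 ± 0.47, adjusted p = 0.00292). It stood at 3.84 and 3.77 in ND and at 7.15, 5.97 and 7.56 in HFD. In HFD CD11c+ against ND CD11c- ATM it rose by 4.60 ± 0.47 (adjusted p = 1.84e-05), together with Sort1, sortilin (2.52 ± 0.48, 0.00511), and Gnptab, which makes the mannose-6-phosphate tag (2.23 ± 0.45, 0.00806). Igf2r passed in each fit that left out 1 array, while Sort1 and Gnptab were lost without ND CD11c- ATM replicate 1 (adjusted p of 0.103 and 0.209). Igf2r was also high in lean PA (7.39, 7.06 and 7.31), and the preadipocyte list was higher in HFD than in ND CD11c- ATM; its part was not tested.

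Between sorts, further hydrolases mostly ran with the members. In ATDC against macrophages 9 of 21 fell in lean mice (4.6% of all genes fell) and 8 of 21 in obese mice (2.44%), and 0 rose, led by Lgmn (-2.86 ± 0.39, adjusted p = 7.65e-05) and Ctsf (-2.55 ± 0.40, 0.000294) in lean and by Galc (-2.10 ± 0.48, 0.0144) and Ctsf (-1.89 ± 0.33, 0.00164) in obese mice. Of these, Galc was lost without ATDC replicate 1 or CD11c+ ATM replicate 1 or 3 (adjusted p up to 0.122). Tfec, the fourth member of the Mitf family, counted here with the nutrient-signalling genes, fell in ATDC by 4.11 ± 0.63 in lean (adjusted p = 0.00024) and by 2.72 ± 0.52 in obese mice (0.0035). In lean PA against macrophages 11 of 21 further hydrolases fell (10.8% of all genes fell) and 2 rose, with Lgmn at -4.83 ± 0.36 (adjusted p = 1.82e-08) and Ctsk at 5.71 ± 0.58 (3.79e-07). In WL against ND CD11c- ATM (6.18% of all genes passed) Ctsk rose by 5.40 ± 0.63 (adjusted p = 4.65e-05) and Igf2r by 3.47 ± 0.51 (0.000548). The cystine transporter gene Ctns fell by 2.33 ± 0.64 (adjusted p = 0.0334). The Ctns call was lost without ND replicate 1, ND replicate 2 or WL replicate 2 (adjusted p up to 0.258), with differences from -3.09 to -1.57. Ctsf (-1.59), Mfsd8 (-1.54), Gga3 (-1.41), Ctsh (-0.89) and Ostm1 (-0.84) fell as well, each passing in at most 2 of the 4 fits that left out 1 array. Ctsk and Igf2r were also high in lean PA, and in this comparison 8 of 10 preadipocyte and 7 of 7 mast cell genes rose. The part of these markers was not tested.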

How the data were processed

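The authors deposited 1 table of log2 expression values for 24 arrays, from -0.02 to 13.1, made with RMA, oligo and limma per the submitters' processing notes; versions and settings were not given in the sources used here. RMA brings arrays to a common distribution, so values are relative. Amplified RNA was hybridised, per the labels' protocols. Of 41345 probe rows, 23521 named 1 gene, 1814 several and 16010 were unnamed; 22180 genes resulted, 1082 of them with several rows, of which the row with the highest mean was kept. Genes above the array's own median (2.96 to 3.15) on at least 2 arrays were tested (15496). limma 3.58.1 in R 4.3.3 fitted 1 mean per group to all 24 arrays (15 residual degrees of freedom) with Benjamini-Hochberg adjustment over all tested genes; the code was tested on simulated data. There were 11 comparisons and 3 differences between differences, and 2 comparisons were added after the values were seen. Members past the threshold are named, with per-array values for those that the results turn on. The comparisons of PA with macrophages are the exception, and only part of their called members are named. Of other lysosomal lists up to 4 with the largest difference are named. Members and lists were chosen with earlier results of these data known. The labels stated no pairing of samples. Same-numbered arrays of different groups showed little correlation in their deviations from group means (-0.13 to 0.25, median 0.0079). All arrays were treated as independent, and whether some sorts shared a pool of mice cannot be seen from these correlations. The pooling of weight-loss mice, and sort gates beyond CD11c, were not stated in the sources used here.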

Additional observations from a re-analysis of the deposited data

Results flagged for a closer look

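Lgmn, the protease legumain, lay outside the 47 listed genes and was singled out because its diet effect differed between preadipocytes and CD11c- macrophages by limma's test of the difference itself (3.20 ± 0.48, adjusted p = 0.00406). It rose by 3.29 ± 0.32 in HFD against ND PA (adjusted p = 1.16e-05). The difference passed in all 11 fits that left out 1 array (adjusted p up to 0.0349) and was 3.79 without the arrays that stood apart. In PA, the arrays that stood apart were the ND array highest and the HFD array lowest on the macrophage list. That list was higher in HFD PA (4.90 to 6.94) than in ND PA (3.74 to 5.13), and its part in the Lgmn difference was not tested.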

How the results depend on the processing

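No comparison's count of members turned direction under any alternative, and 0 of the 86 member calls changed sign. With the replicate block, which the numbers do not justify (correlations of same-numbered samples from -0.13 to 0.25, median 0.0079), HFD against ND CD11c- ATM and WL CD11c+ against CD11c- ATM each had 0 calls, and 78 of the 86 calls passed. Fitting only the groups compared left 0 calls in HFD against ND CD11c- ATM, 2 in HFD against ND PA, 0 in WL against ND CD11c- ATM, 0 in WL CD11c+ against CD11c- ATM, 0 in HFD ATDC against CD11c+ ATM and 3 in ND ATDC against CD11c- ATM. Array weights gave 2 calls in HFD against ND CD11c- ATM, 13 in HFD against ND PA, 0 in WL CD11c+ against CD11c- ATM, 16 in HFD ATDC against CD11c+ ATM, 11 in HFD CD11c+ against ND CD11c- ATM and 2 in the difference of diet effects between PA and CD11c- ATM. An intensity trend with robust variances gave 9 in HFD against ND PA, 1 in WL against HFD CD11c- ATM (Asah1) and 14 in HFD ATDC against CD11c+ ATM. In HFD against ND PA the stricter filter and quantile normalisation gave 8 each. No filter gave 0 in HFD against ND CD11c- ATM. Without the arrays that stood apart, chosen after seeing the data, calls numbered 0 in HFD against ND CD11c- ATM, 9 in HFD against ND PA, 1 in HFD ATDC against CD11c+ ATM and 2 in the difference of diet effects between PA and CD11c- ATM. In PA this choice widened the gap in the macrophage list between the diets. The cause of these shifts was not tested.

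Leaving out 1 array at a time gave 0 to 1 calls in HFD against ND CD11c- ATM, 3 to 7 in HFD against ND PA, 0 to 3 in WL against ND CD11c- ATM, 0 to 2 in WL CD11c+ against CD11c- ATM, 2 to 14 in HFD ATDC against CD11c+ ATM, 3 to 4 in ND ATDC and 12 to 21 in ND PA against CD11c- ATM, 3 to 5 in HFD CD11c+ against ND CD11c- ATM, 22 to 25 in HFD PA against CD11c+ ATM, 0 to 2 in the difference of diet effects between PA and CD11c- ATM, and 0 in the remaining 6. Of the 86 calls 40 passed in every such fit. Among all called genes, the share that was higher moved with scaling from 39.7% to 56.6% in WL against HFD CD11c- ATM (quantile) and from 47.6% to 34.7% (centred) or 67.7% (quantile) in CD11c+ ATM. It moved from 66.3% to 76.7% in HFD CD11c+ against ND CD11c- ATM, and from 12% to 0% in the WL effect between classes. With 2 or 3 arrays a group, small differences could not be resolved.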

Other observations

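Between WL and HFD CD11c- macrophages, where 2.96% of all genes passed, 2 of 17 other membrane protein genes fell, Mfsd8 (-1.47), a membrane protein lost in a childhood storage disease, and Ostm1 (-0.86), the partner of the lysosomal chloride exchanger. The cathepsin Ctsf (-1.42) and the sorting adaptor Gga3 (-1.25) fell as well. These calls were not stable: of the 5 fits that left out 1 array, Mfsd8, Ostm1 and Ctsf passed in 1 and Gga3 in 2 (adjusted p up to 0.12, 0.257, 0.248 and 0.179). In the same comparison 5 of 7 mast cell genes and 2 of 14 dissociation stress genes rose, and their part in these values was not tested.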
